A study of Mus musculus with 24 samples.

Results

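The opioid receptor and opioid peptide genes described here are 7. They are the receptor genes Oprm1, Oprd1, Oprk1 and Oprl1 and the precursor genes Penk, Pdyn and Pnoc. These were picked by name from a table of 15232 genes, and all 7 were present. Pomc, another opioid peptide precursor gene, is not among them and was read only with the other pathway genes. The values come from bulk poly(A) RNA of the anterior cingulate cortex, a frontal midline area, with 1 library per animal from 24 mice. Untrained wild-type mice (WT), untrained Thbs1/2 KO mice and trained Thbs1/2 KO mice made up 3 arms of 8, each with 4 females and 4 males. None of the 24 libraries came from a trained WT mouse. Trained mice worked in operant (Skinner) boxes and were food deprived for it, per the labels' protocols, so training and food deprivation cannot be told apart. Strain, age and the design of the KO alleles are not given in the sources used here.

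The opioid system pairs secreted peptides with receptors that couple to inhibitory G proteins. Enkephalins, cut from the Penk precursor, act mainly on the delta receptor (Oprd1) and the mu receptor (Oprm1). Dynorphins, cut from the Pdyn precursor, prefer the kappa receptor (Oprk1), and nociceptin, from Pnoc, acts on its own receptor (Oprl1). In cortex, precursor transcripts are found mostly in interneurons, whereas in the neighbouring striatum Penk and Pdyn mark the projection neurons of the indirect and the direct pathway. Mu and kappa receptors of the cingulate cortex are known for their part in pain affect and motivation.

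The precursors are related through the short core that begins each active peptide, and its coding sequence shows what each of the measured transcripts carries. In the GENCODE M21 coding sequences (GRCm38), the Penk transcript holds 7 cores, 6 with the methionine form and 1 with the leucine form. Of the 6, copies 4 and 7, which are not shown, are not followed by a pair of basic codons. Pdyn holds 3 with the leucine form, and Pnoc holds 1 nociceptin start, in which phenylalanine takes the place of the first tyrosine. In the lines that follow, the coding strand is given 5′ to 3′ with the 15 bases of the core in capitals and 6 bases on each side, where the 6 bases before the core are a pair of basic codons at which convertases cut.
Penk copy 1, met-enkephalin: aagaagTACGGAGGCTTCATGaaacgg
Penk copy 6, leu-enkephalin: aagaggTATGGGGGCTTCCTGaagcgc
Pdyn copy 1, alpha-neoendorphin: aaacgcTATGGCGGCTTTTTGcgcaaa
Pdyn copy 2, dynorphin A: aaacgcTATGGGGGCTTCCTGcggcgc
Pdyn copy 3, dynorphin B: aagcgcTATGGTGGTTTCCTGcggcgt
Pnoc copy 1, nociceptin: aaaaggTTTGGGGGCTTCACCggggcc
The Penk copies shown lie at chr4:4134328-4134354 and chr4:4133935-4133961, the Pdyn copies at chr2:129688232-129688258, chr2:129688124-129688150 and chr2:129688067-129688093, and the Pnoc copy at chr14:65404872-65404898, all on the minus strand. All 11 cores follow a pair of basic codons. The 4 receptor coding sequences hold no such core.

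Some facts of the whole series bear on every value. Recovered depth ran from 12314984 to 27156302 reads per library. Thbs1 and Thbs2, the targeted genes, were higher in libraries labelled KO: the mean FPKM of Thbs1 over 8 libraries was 0.512 (SD 0.147) for the WT label, 3.68 (SD 0.840) for untrained KO and 4.63 (SD 0.690) for trained KO, with no overlap between labels. FPKM count fragments per kilobase after scaling for depth, so levels can be set side by side between genes. Because the targeted genes go against the genotype labels, libraries are called labelled KO or labelled WT, and each direction between them rests on those labels. Male untrained library 3 labelled KO, the deepest, stood apart: 12 of 14 striatal and 9 of 9 septal marker genes were above the other 23 libraries, while 8 of 9 cortical excitatory and 6 of 6 oligodendrocyte markers were below them. Changes of opioid genes between arms that use it are therefore given with and without it. All 8 trained animals had animal numbers over 1000, against 2 of 8 untrained animals labelled KO and 1 of 8 labelled WT, so animal number overlaps with training.

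Penk was the most abundant of the 7 transcripts, with a median of 36.7 FPKM over the 23 libraries without male untrained library 3 labelled KO. The order of mean levels was Penk, Oprl1, Pdyn, Oprd1, Pnoc, Oprk1 and Oprm1. Each gene was above the next in nearly every library: Penk above Oprl1 in 24 of 24, Oprl1 above Pdyn in 22 of 24, Pdyn above Oprd1 in 24 of 24, Oprd1 above Pnoc in 23 of 24, Pnoc above Oprk1 in 23 of 24, and Oprk1 above Oprm1 in 24 of 24. Oprl1 and Pdyn were thus the only neighbours out of order in 2 libraries. The nociceptin receptor gene was the most abundant receptor, with a median of 17.3 FPKM, and the mu receptor gene was the lowest, with a median of 0.472 FPKM over the same 23 libraries. Oprm1 rested on 12 to 60 reads in these libraries, which limits what its changes can show.

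**Figure D1:**
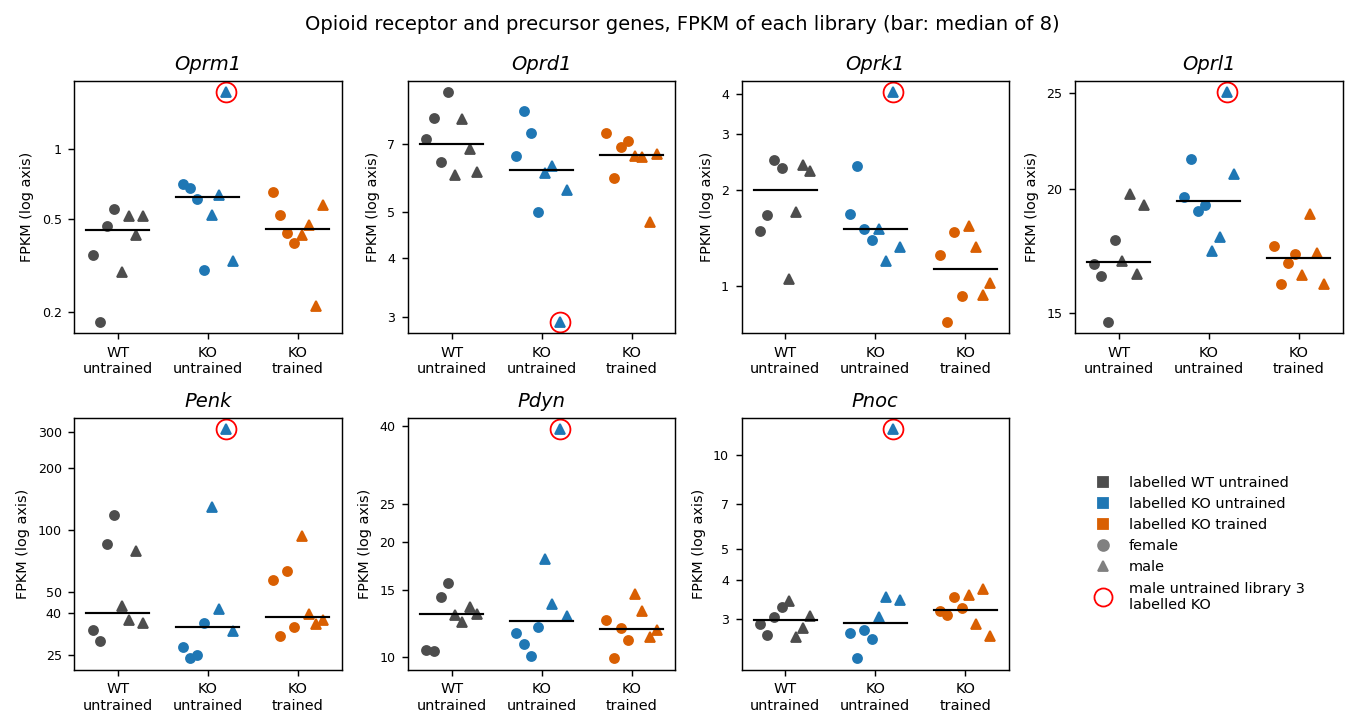
FPKM of each opioid gene in each of 24 libraries (log axis), by arm as labelled, with circles for females, triangles for males and a bar at the median of 8. The red ring marks male untrained library 3 labelled KO, which is the highest of all libraries in 6 genes and the lowest in Oprd1, while the 3 arms overlap in every gene.

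The kappa receptor gene Oprk1 was the only member called between any arms. It was lower in trained libraries labelled KO than in untrained libraries labelled WT. Its values ran from 1.05 to 2.49 FPKM (median 2.00) in the arm labelled WT, from 1.197 to 4.04 FPKM (median 1.51) in the untrained arm labelled KO, and from 0.774 to 1.54 FPKM (median 1.13) in the trained arm. All 8 trained libraries were below the mean of the arm labelled WT, and 4 of them were below every library labelled WT, so the arms overlapped. The mean of 8 libraries fell from 1.93 FPKM (SD 0.524) to 1.16 FPKM (SD 0.282), a ratio of 0.599. On the log2(FPKM + 1) scale the change was -0.43 (SE 0.108, 95% interval -0.66 to -0.20, adjusted p = 0.00921 by limma). This scale understates the change of a gene as low as Oprk1: with limma-voom on recovered reads the log2 change was -0.73 (adjusted p = 0.00710). In this comparison 1 of 7 opioid genes was called, against 21.8% of all 15006 genes tested (1646 higher and 1618 lower, or 1123 and 2310 with all libraries scaled to an equal sum). The comparison joins a difference of label to one of training.

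Oprk1 was also read by animal number. The lowest library labelled WT, at 1.05 FPKM, came from the only WT-labelled animal numbered over 1000, and the other 7 lay between 1.49 and 2.49 FPKM. The untrained animals labelled KO and numbered over 1000 were at 1.51 and 1.197 FPKM. The 6 of that arm under 1000 ran from 1.33 to 4.04 FPKM, so these number groups overlapped. Over all arms, Oprk1 was at 1.89 ± 0.450 FPKM (SD, n = 12) in animals under 1000, without male untrained library 3 labelled KO, and at 1.18 ± 0.262 FPKM (SD, n = 11) in animals over 1000. All 8 trained animals are among those over 1000 and none among those under 1000, so this difference also holds the training difference. With animal number over 1000 as a covariate, the change between the trained and the WT-labelled arm was 0.09 (SE 0.198, limma adjusted p = 0.929), a fit that rests on 1 untrained library for the separation. In that fit 30 genes were called in all, none of them an opioid gene. Animal number and training cannot be told apart in females.

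**Figure D2:**
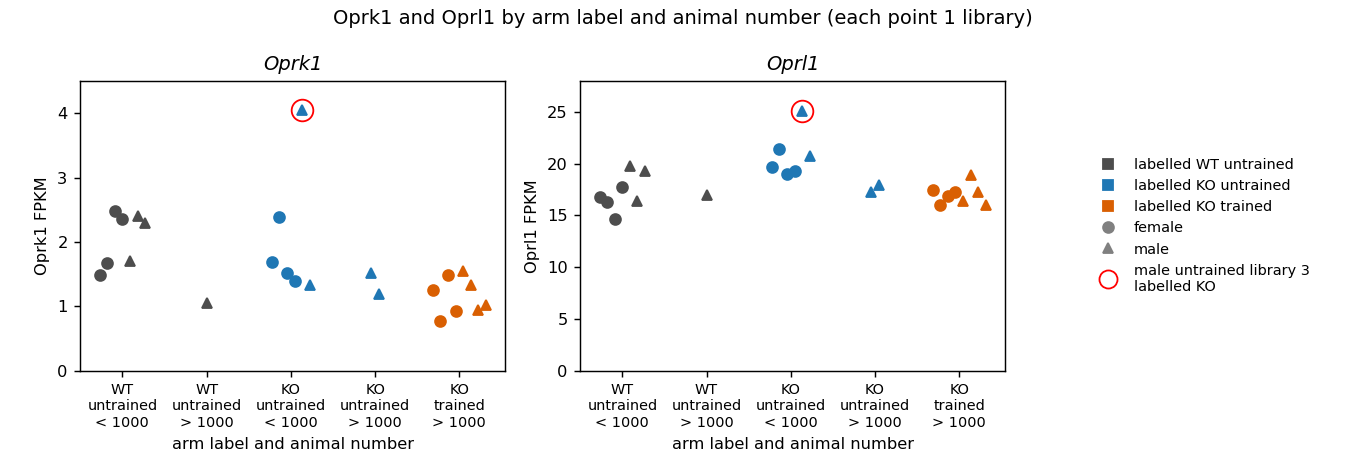
FPKM of Oprk1 (left) and Oprl1 (right) in each library, by arm label and by whether the animal number was under or over 1000, with the red ring on male untrained library 3 labelled KO. Oprk1 lies between 0.774 and 1.54 FPKM in the 11 animals over 1000, trained or not, and Oprl1 lies between 19.0 and 25.1 FPKM in the 6 untrained animals labelled KO under 1000.

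Between the trained and untrained arms labelled KO, Oprk1 was lower in the trained arm without passing the test. The log2 change was -0.37 (SE 0.144, limma adjusted p = 0.138), and -0.25 (SE 0.0942, limma adjusted p = 0.124) without male untrained library 3. All 8 trained libraries were below the untrained mean of 1.57 ± 0.388 FPKM (SD, n = 7) taken without that library. In the 6 males numbered over 1000, 4 trained and 2 untrained, the change was -0.10 (SE 0.131, limma adjusted p = 0.808). That fit called 0 genes in all, so it cannot decide whether Oprk1 differs with training. Between the untrained arms the change was -0.06 (SE 0.159, limma adjusted p = 0.919), or -0.19 (SE 0.1104, limma adjusted p = 0.412) without the same library. These comparisons share arms with the one above, so their values are not independent of it.

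The nociceptin receptor gene Oprl1 was highest in the untrained arm labelled KO and missed the threshold in both comparisons with that arm. It ran from 14.7 to 19.8 FPKM (median 16.9) in the arm labelled WT, from 17.3 to 25.1 FPKM (median 19.5) in the untrained arm labelled KO, and from 16.03 to 18.9 FPKM (median 17.0) in the trained arm. Each of the 8 untrained libraries labelled KO was above the mean of the arm labelled WT, and each of the 8 trained libraries was below the mean of the untrained arm labelled KO, yet the ranges overlapped. The log2 change between the untrained arms was 0.20 (SE 0.0682, limma adjusted p = 0.205), and 0.16 (SE 0.0584, limma adjusted p = 0.163) without male untrained library 3. With training it was -0.22 (SE 0.0626, limma adjusted p = 0.0570), and -0.17 (SE 0.0492, limma adjusted p = 0.0523) without that library. Between the trained and the WT-labelled arm it was -0.01 (95% interval -0.12 to 0.09, limma adjusted p = 0.864).

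The near-threshold p-values of Oprl1 crossed it under some settings. The training difference passed with libraries scaled to an equal sum (limma adjusted p = 0.0457), with array weights (0.0226), with the 24 libraries fitted jointly (0.0309), without male untrained library 1 labelled KO (0.0311) and without male untrained library 2 (0.0435). Both of these males have numbers over 1000, and their Oprl1 values of 17.3 and 17.9 FPKM are the lowest of the untrained arm labelled KO. With animal number as a covariate, the difference between the untrained arms was 0.24 (SE 0.0554) and passed (limma adjusted p = 0.0455). Among animals numbered under 1000 only, it was 0.27 (SE 0.0605, limma adjusted p = 0.0507). Of the untrained animals, only 1 labelled WT and 2 labelled KO had numbers over 1000. For the training difference, the fit with animal number as a covariate called 0 genes in all, so Oprl1 did not pass there. Oprl1 lies on chromosome 2 (chr2:181715016-181720985, GRCm38, plus strand), 63.6 Mb from Thbs1.

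**Figure D3:**
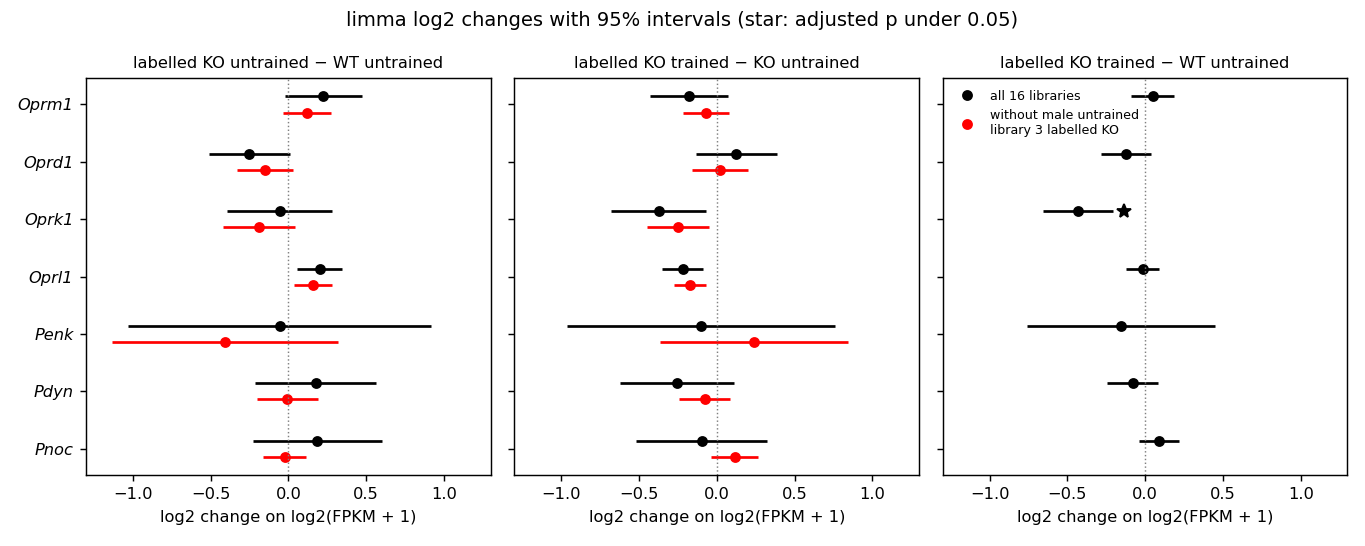
limma log2 changes of each opioid gene on the log2(FPKM + 1) scale with 95% intervals in the 3 comparisons of arms, for all 16 libraries (black) and without male untrained library 3 labelled KO (red; that library is not in the right panel). The star marks the change of -0.43 in Oprk1, the only one with an adjusted p under 0.05, and the intervals of Penk are the widest.

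The mu and delta receptor genes were not called in any comparison of arms. Oprm1, whose product is the main target of morphine, ran from 0.183 to 0.556 FPKM (median 0.449) in the arm labelled WT, from 0.302 to 1.74 FPKM (median 0.622) in the untrained arm labelled KO and from 0.214 to 0.650 FPKM (median 0.454) in the trained arm. Between the untrained arms 5 of 8 libraries labelled KO were above every library labelled WT, with a log2 change of 0.23 (SE 0.117, limma adjusted p = 0.457). The change was 0.12 (SE 0.0742, limma adjusted p = 0.442) once male untrained library 3, which alone held 230 Oprm1 reads, was left out. With training the Oprm1 change was -0.18 (SE 0.118, limma adjusted p = 0.399), or -0.07 (SE 0.0710, limma adjusted p = 0.604) without that library. Oprm1 (chr10:6758506-7038198, GRCm38, plus strand) overlaps Ipcef1 and Gm10945 on the other strand. The strand setting of the authors' counting is not given in the sources used here, so reads of these genes may not be separate.

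Oprd1, the delta receptor gene and the enkephalin receptor with the higher transcript level here, ran from 6.004 to 8.995 FPKM (median 6.99) in the arm labelled WT. It ran from 2.93 to 8.21 FPKM (median 6.16) in the untrained arm labelled KO, where male untrained library 3 was the lowest, and from 4.78 to 7.36 FPKM (median 6.61) in the trained arm. Its change between the untrained arms was -0.25 (SE 0.123, limma adjusted p = 0.424), and -0.15 (95% interval -0.33 to 0.03, limma adjusted p = 0.409) without that library. With training it was 0.13 (SE 0.122, limma adjusted p = 0.581), or 0.02 (SE 0.0854, limma adjusted p = 0.907) without that library. In males Oprd1 was at 6.30 ± 0.784 FPKM (SD, n = 11) without that library, against 7.08 ± 1.05 FPKM (SD, n = 12) in females. The sex difference of -0.22 with all libraries (SE 0.0908, limma adjusted p = 0.0872) and of -0.15 without that library (SE 0.0680, limma adjusted p = 0.1098) did not pass.

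Neither the genotype label nor training gave a called opioid gene. Between the untrained arms 0 of 7 passed by limma (1 at an unadjusted p under 0.05, Oprl1; 0 by limma-voom), against 1.35% of all genes, or 203 genes. With training 0 of 7 passed (2 at an unadjusted p under 0.05, Oprk1 and Oprl1; 0 by limma-voom), against 4.4%, or 661 genes, of which 394 were higher and 267 lower (196 and 344 with all libraries scaled to an equal sum). With male untrained library 3 left out, the shares were 2.47% and 5.28%, with 0 of 7 opioid genes in either. The background shares are too low for a count of 0 among 7 genes to set the opioid genes apart.

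Penk, the enkephalin precursor gene, differed more between libraries of an arm than between arms. It ran from 29.0 to 119 FPKM (median 39.9) in the arm labelled WT, from 24.02 to 309 FPKM (median 34.0) in the untrained arm labelled KO, and from 30.8 to 93.6 FPKM (median 38.1) in the trained arm. In each arm most libraries were at 63.3 FPKM or less, and 1 to 3 were higher, at 79.8 FPKM or more. The log2 changes were -0.06 (SE 0.461, limma adjusted p = 0.975) between the untrained arms, -0.10 (SE 0.409, limma adjusted p = 0.914) with training and -0.16 (SE 0.287, limma adjusted p = 0.733) between the trained and the WT-labelled arm. Leaving out male untrained library 3, the first 2 were -0.41 (95% interval -1.14 to 0.32) and 0.24 (95% interval -0.36 to 0.84), so these data leave changes of either sign possible.

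The high Penk libraries were the libraries with high striatal marker genes. The summed level of 14 striatal markers, a list without Penk or Pdyn, was 525 FPKM in male untrained library 3 labelled KO. It was 224 to 313 FPKM in 5 further libraries and 72.7 to 139 FPKM in the other 18. Penk was at 79.8 to 129 FPKM in those 5 libraries and at 24.02 to 63.3 FPKM in the other 18, with no overlap. Of the 6 libraries, 3 were labelled WT untrained, 2 KO untrained and 1 KO trained. The median log2 change of the 14 markers was -0.50 between the untrained arms without male untrained library 3, and 0 of 14 passed, beside a change of -0.41 in Penk. Of the 14 markers, 13 were above 0 in every library and Six3 was at 0 in 4 of the 24. The part of these markers in the Penk values of the arms was not tested. Adding their mean log2 level to the fit gave Penk changes of 0.16 (SE 0.112), 0.09 (SE 0.105) and 0.21 (SE 0.0675) in the 3 comparisons. The list holds Rarb, Sh3rf2 and Adora2a, the genes most like Penk across 23 libraries (Pearson r of 0.95 to 0.96). A term built from them takes up variation of Penk by construction, so this fit cannot decide that part. With that term the sign of the Penk change turned in all 3 comparisons, from negative to positive. The standard error of Penk was smaller than without the term in each comparison. Its change of 0.21 between the trained and the WT-labelled arm passed (limma adjusted p = 0.0412), in a fit that called 2767 of the 15006 genes. In bulk tissue, fewer cells of a type and less RNA per cell cannot be told apart.

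**Figure D4:**
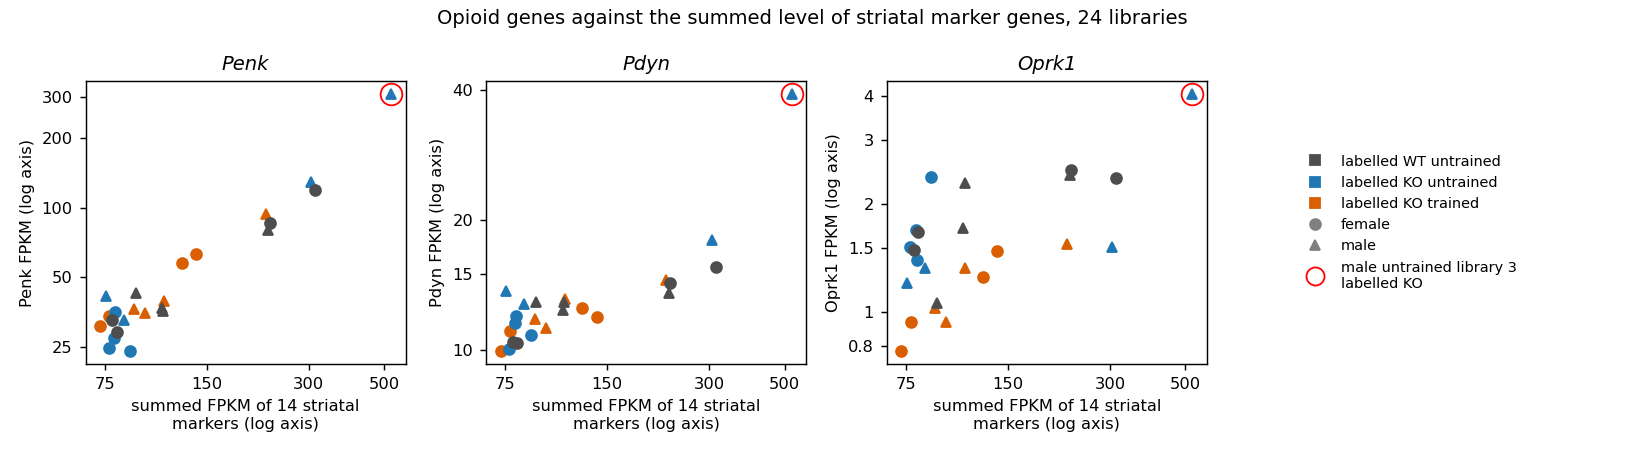
FPKM of Penk, Pdyn and Oprk1 (log axis) against the summed FPKM of 14 striatal marker genes (log axis) in each of 24 libraries, coloured by arm label, with circles for females and triangles for males. The 5 libraries at 224 to 313 FPKM of striatal markers have Penk at 79.8 to 129 FPKM, above all 18 libraries to their left, whereas Oprk1 in the same libraries spans 1.51 to 2.49 FPKM, and the red ring marks male untrained library 3 labelled KO.

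The genes most like Penk across the 23 libraries were all on the striatal list. They were Rarb, a retinoic acid receptor gene (Pearson r = 0.96), Sh3rf2 (r = 0.96) and Adora2a, the adenosine receptor gene of indirect-pathway neurons (r = 0.95). Pdyn was most like Pde1b (r = 0.88), Rasgrp2 (r = 0.88) and Chat (r = 0.87), and Penk and Pdyn were like each other (r = 0.86). Oprk1 was most like Amz1 (r = 0.86), Smyd3 (r = 0.85) and Nln (r = 0.83), a gene for a peptidase that cleaves small neuropeptides. The highest likeness was 0.77 for Oprm1 (Peak1), 0.80 for Oprd1 (Ppp1r12a), 0.78 for Oprl1 (Anapc7) and 0.80 for Pnoc (Mrpl52). These r values are over log2(FPKM + 1) in 23 libraries, which share arms and animal number groups, and are given as a description.

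Pdyn, the dynorphin precursor gene, varied less than Penk and followed the same libraries. It ran from 10.4 to 15.6 FPKM (median 12.9) in the arm labelled WT, from 10.1 to 39.2 FPKM (median 12.4) in the untrained arm labelled KO and from 9.95 to 14.6 FPKM (median 11.9) in the trained arm. In the 5 libraries with high striatal markers it was at 13.5 to 18.0 FPKM, and 4 of the 5 were above all other 18 libraries, which were at 9.95 to 13.7 FPKM. The change between the untrained arms was 0.18 (SE 0.184, limma adjusted p = 0.763) and without male untrained library 3 it was -0.01 (95% interval -0.20 to 0.19, limma adjusted p = 0.984). With training it was -0.26 (SE 0.173, limma adjusted p = 0.407), and -0.08 (95% interval -0.24 to 0.08, limma adjusted p = 0.580) without that library.

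The sex difference of Pdyn did not pass the test. Males were at 13.4 ± 1.77 FPKM (SD, n = 11) without male untrained library 3 and females at 11.7 ± 1.73 FPKM (SD, n = 12). The log2 difference of males from females was 0.30 (SE 0.130, limma adjusted p = 0.0964) with all 24 libraries and 0.18 (SE 0.0700, limma adjusted p = 0.0589) without that library. In this comparison 0 of 7 opioid genes passed by limma (2 at an unadjusted p under 0.05, Oprd1 and Pdyn; 0 by limma-voom), against 23.2% of all genes. The median sex difference of the 14 striatal markers was 0.33, and 0 of 14 passed. With their mean log2 level in the fit of all 24 libraries, the Pdyn difference was 0.18 (SE 0.0684, limma adjusted p = 0.0634).

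Pnoc, the nociceptin precursor gene, had like medians in the arms, and 1 library stood far above. It ran from 2.63 to 3.42 FPKM (median 2.97) in the arm labelled WT, from 2.24 to 12.1 FPKM (median 2.90) in the untrained arm labelled KO and from 2.64 to 3.72 FPKM (median 3.21) in the trained arm. Male untrained library 3 was the only library above 4 FPKM. The change between the untrained arms was 0.19 (SE 0.196, limma adjusted p = 0.766) with all libraries and -0.02 (95% interval -0.17 to 0.12, limma adjusted p = 0.894) without it. With training the change was -0.10 (SE 0.198, limma adjusted p = 0.817) with all libraries and 0.11 (95% interval -0.04 to 0.27, limma adjusted p = 0.368) without it, so both signs turned with that library. Between the trained and the WT-labelled arm it was 0.09 (SE 0.0625, limma adjusted p = 0.324). Pnoc was at 3.26 ± 0.331 FPKM (SD, n = 11) in animals numbered over 1000 and at 2.84 ± 0.327 FPKM (SD, n = 12) in those under 1000, again without that library. All 8 trained animals are among those over 1000, so this difference also holds the training difference.

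Whether the label difference itself differed between the sexes was tested with an interaction term, and 0 of 7 opioid genes passed by limma (1 at an unadjusted p under 0.05, Penk; 0 by limma-voom), against 0% of all genes. Penk was at 24.02, 24.9, 27.3 and 35.4 FPKM in untrained females labelled KO and at 29.0, 32.9, 85.6 and 119 FPKM in females labelled WT. It was at 32.6, 41.4, 129 and 309 FPKM in untrained males labelled KO and at 35.8, 36.9, 42.8 and 79.8 FPKM in males labelled WT. The label difference was thus downward in the means of females and upward in those of males, by 1.88 more in males on the log2 scale (SE 0.823, unadjusted p = 0.0365, limma adjusted p = 0.977), or 1.27 (SE 0.641, limma adjusted p = 1.00) without male untrained library 3. The summed striatal markers were at 77.02 to 89.1 FPKM in those females labelled KO and at 79.1, 81.5, 230 and 313 FPKM in the females labelled WT. They were at 75.6, 85.3, 304 and 525 FPKM in the untrained males labelled KO and at 92.5, 111, 112 and 228 FPKM in the males labelled WT. The median interaction of the 14 striatal markers was 1.27, and 0 of 14 passed. These markers include the genes most like Penk, so adding them to the fit cannot decide their part in the Penk interaction. With their mean log2 level in the fit, the Penk interaction was 0.44 (SE 0.227, limma adjusted p = 1.00). The training difference by sex gave 0 of 7 opioid genes by limma (0 at an unadjusted p under 0.05; 0 by limma-voom), against 0.00666% of all genes. With male untrained library 3 left out, 0 of 7 passed in either interaction, and Pnoc was the 1 gene at an unadjusted p under 0.05 in each, with 0.28 for label by sex (SE 0.120, limma adjusted p = 1.00) and -0.30 for training by sex (SE 0.129, limma adjusted p = 0.248).

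Among 71 other genes of the opioid pathway, the untrained arms differed in 1. Kcnip3 encodes DREAM, a calcium-binding repressor known to bind the Pdyn gene. It ran from 48.4 to 58.1 FPKM in the arm labelled WT and from 29.8 to 47.6 FPKM in the untrained arm labelled KO, where the arms did not overlap, and from 35.4 to 48.1 FPKM in the trained arm. The log2 change between the untrained arms was -0.40 (SE 0.0763, limma adjusted p = 0.0101), and -0.34 (SE 0.0510, limma adjusted p = 9.7e-04) without male untrained library 3, which was the lowest. It was -0.34 (SE 0.0550, limma adjusted p = 4.0e-04) between the trained and the WT-labelled arm. Pdyn itself differed by -0.01 and -0.08 in the same comparisons, the first without that library. Kcnip3 lies at chr2:127456498-127522094 (GRCm38, minus strand), 9.3 Mb from the targeted Thbs1 gene, and Pdyn at chr2:129686565-129699844 lies 2.2 Mb further on, 11.6 Mb from Thbs1. Whether the chromosome around Thbs1 differs between the mice was not tested here. The called share of the list, 1.41%, was near the background of 1.35%. Without male untrained library 3 it was 4.23%, with Adcy1 higher and Gnai1 and Kcnip3 lower, against 2.47%.

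The sequence before the Pdyn start was read because DREAM binds a site with the core letters GTCA. RefSeq lists 2 starts for Pdyn, of which only the first was read. The 250 bases before it (GRCm38.p6, chr2:129699939-129700188, minus strand, 5′ to 3′) are shown with each match in capitals, read here as TGAC because all 3 lie on the other strand.
Pdyn upstream: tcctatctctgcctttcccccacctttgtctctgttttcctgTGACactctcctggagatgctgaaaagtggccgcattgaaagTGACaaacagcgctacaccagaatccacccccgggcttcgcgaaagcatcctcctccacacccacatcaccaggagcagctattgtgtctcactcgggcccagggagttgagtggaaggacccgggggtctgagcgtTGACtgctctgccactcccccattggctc
The GTCA core was searched on both strands and is held by 80.3% of 27025 RefSeq promoter windows of that length, with a median of 2 matches, so 3 matches are no more than a description. The window holds no exact match to the cyclic AMP response element (TGACGTCA, in 1.62% of windows) or to the AP-1 motif (TGANTCA, in 6.87%). Sites with other letters and bases further upstream were not searched, so the promoter may still hold such elements. It ends at the start, so a DREAM site after the start could not be found here. Binding of DREAM to the marked matches was not tested.

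With training 1 of the 71 pathway genes passed, a share of 1.41% against the background of 4.4%. It was Atf4, a transcription factor gene of the CREB family, which was higher by 0.22 (SE 0.0510, limma adjusted p = 0.0249). It ran from 49.3 to 66.2 FPKM in the untrained arm labelled KO and from 66.3 to 75.3 FPKM in the trained arm, without overlap. Atf4 no longer passed without female untrained library 1 labelled KO (limma adjusted p = 0.0531), without trained female library 1 (0.0543), or with animal number as a covariate (0.485). Without male untrained library 3, 5 pathway genes passed (7.04% against 5.28%): Pcsk1, Crem and Atf4 were higher and Nln and Gprasp1 were lower.

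Between the trained and the WT-labelled arm, 18 of the 71 pathway genes passed, 9 higher and 9 lower, a share of 25.4% against the background of 21.8%. Precursor processing had 3 higher and 1 lower of 8. Pcsk1, the convertase gene whose product makes the first cuts in neuropeptide precursors, had a mean of 20.7 FPKM (SD 4.15, n = 8) under the WT label and of 33.9 FPKM (SD 4.49, n = 8) after training, where all 8 libraries were at 25.7 FPKM or more. The log2 change of Pcsk1 was 0.70 (SE 0.0994, limma adjusted p = 1.3e-04). Pcsk2, the partner convertase gene, went the other way, from a mean of 159 FPKM (SD 7.73) to one of 132 FPKM (SD 10.2), by -0.27 (SE 0.0467, limma adjusted p = 7.9e-04); it was chosen for naming after its values were seen.

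The genes for transcription factors of precursor genes had 3 higher and 1 lower of 12. Fosb was higher by 0.74 (SE 0.0980, limma adjusted p = 8.2e-05) and Fos by 0.70 (SE 0.147, limma adjusted p = 0.00300), both activity-induced AP-1 genes, and Kcnip3 was the lower one. Receptor coupling had 1 higher and 3 lower of 20, with Gnb4, a G protein beta subunit gene, lower by 0.31 (log2 change -0.31, SE 0.0917, limma adjusted p = 0.0225). Receptor regulation, the arrestin, kinase and RGS genes, had 2 higher and 3 lower of 16 tested. Peptide degradation had 0 higher and 1 lower of 10: Nln fell from a mean of 10.6 FPKM (SD 0.732) to one of 8.47 FPKM (SD 0.322), by -0.29 (SE 0.0443, limma adjusted p = 2.3e-04), so all 8 trained libraries were below all 8 labelled WT. The list of other ligands and atypical receptors had 0 of 5. None of the 7 genes named in this and the preceding paragraph passed with animal number as a covariate, where Pcsk1 was at 0.51 (limma adjusted p = 0.464), Nln at -0.14 (0.667), Gnb4 at -0.0014 (1.00) and Fos at -0.06 (0.966).

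Between the sexes 16 of the 71 pathway genes passed, 12 higher and 4 lower in males, a share of 22.5% against 23.2%. Receptor coupling had 4 higher and 1 lower, receptor regulation 4 higher and 1 lower, peptide degradation 2 higher, other ligands and atypical receptors 1 higher, and transcription 1 higher and 2 lower. Both interaction terms gave 0 of 71 by limma, against 0% and 0.00666% of all genes.

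Markers of other cell types were read beside these comparisons. Between the trained and the WT-labelled arm, 4 of 14 interneuron markers passed and were higher (Pvalb, Sst, Npy and Tac2), and 4 of 6 microglial markers passed and were lower while 1 was higher, in a comparison in which 21.8% of all genes passed. The interneuron count is thus near the background. The summed interneuron level ran from 609 to 854 FPKM in the arm labelled WT and from 713 to 949 FPKM in the trained arm, and the summed microglial level ran from 119 to 141 FPKM and from 106 to 124 FPKM. Oprk1 fell in the same comparison, and the part of these cell types in that difference was not tested. Of the other lists, 2 of 9 cortical excitatory markers were higher, and 1 of 6 astrocyte, 1 of 9 septal and 2 of 6 vascular markers were lower, while 0 of 14 striatal and 0 of 6 oligodendrocyte markers passed. Between the untrained arms 1 of 6 microglial markers was lower (Trem2), and with training 1 of 6 vascular markers was lower (Pdgfrb), the only markers called there, against 1.35% and 4.4% of all genes. Between the sexes, 2 of 6 astrocyte markers were lower in males, and 2 of 6 microglial and 1 of 14 interneuron markers were higher, with none called in the other lists, against 23.2% of all genes. No marker of these lists was at 0 throughout.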

How the data were processed

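RNA was extracted with TRIzol and made into stranded poly(A) libraries, per the labels' protocols. The submitters' processing notes name FastQC 0.11.7, Trimmomatic 0.38, STAR 2.5.3a, featureCounts, Subread 1.6.3 and the build mm10, without settings. The authors deposited FPKM for 15232 genes in 24 columns, each matched to a sample by its animal number, although the column names call them counts. FPKM were used as deposited. Whole reads were recovered from the FPKM steps for 15231 genes (99.993%, within 0.05 of a whole read; tested on simulated data, which came back exactly) and give the depths: 12875026 to 19876576 reads in libraries labelled WT, 12314984 to 27156302 in untrained ones labelled KO and 16719068 to 20311584 in trained ones.

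limma 3.58.1 under R 4.3.3 (lmFit; eBayes with a trend) was run on log2(FPKM + 1) of the compared arms, with sex as a covariate (arm, for the sex effect). Benjamini-Hochberg adjustment ran over the 15006 genes whose mean reached 0.1 FPKM; the minimum was to be 1 unless an opioid gene lay under it, as Oprm1 did. Tests were 2-sided with a threshold of 0.05, and intervals are 95%. The fit was tested on simulated data of 15006 genes for the comparison of the untrained arms. There, 200 genes with a mean over 1 FPKM were shifted by 1 on the log2(FPKM + 1) scale. The fit called 199 of them, with 10 other calls. The noise was normal, with a spread that gives little weight to single outlying libraries. The result therefore does not carry over to Oprm1, with a mean under 1 FPKM, or to Penk, with a standard error of 0.461 between the untrained arms. For the other opioid genes it does not show how often changes smaller than 1 would be called. The largest change between arms in the main fits was -0.43 (Oprk1).

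All 7 opioid genes are named. Of the pathway lists, genes that passed are named (where more than 6 passed, the 3 largest changes each way; for the sexes, counts only), and per opioid gene up to 3 most alike genes by Pearson r. The members and lists were chosen with earlier results of these data known. Replicate numbers in the titles name different animals and were not used to pair them in the main fits. Alternatives were another pseudocount, filter, scaling, weighting, fit, block, covariate, limma-voom on recovered reads, and leaving out each library; those restricted by animal number, and those that combine a covariate with leaving out male untrained library 3, were chosen after seeing the data. Promoters are from RefSeq GRCm38.p6, which matched 4 of the 7 members, and coding sequences and positions from GENCODE M21. Python 3.11.15, numpy 2.4.6 and pandas 2.3.3 were used.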

Additional observations from a re-analysis of the deposited data

Results flagged for a closer look

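Of the 21 sets of 8 values (7 opioid genes in 3 arms), 5 held a library whose gap to its nearest neighbour exceeded Dixon's 95% critical value of 0.526 of the range, where chance gives about 1.05. All 5 were in male untrained library 3 labelled KO: Penk at 309 FPKM, Pdyn at 39.2 FPKM, Pnoc at 12.1 FPKM, Oprk1 at 4.04 FPKM and Oprm1 at 1.74 FPKM, each the highest of its arm. Against the median of the other 7 libraries of the arm, Penk was 9.46 times as high, Pnoc 4.39 times, Pdyn 3.26 times, Oprm1 2.84 times and Oprk1 2.67 times. Oprl1, at 25.1 FPKM, and Oprd1, at 2.93 FPKM, were also at the end of the range without reaching the critical value.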

How the results depend on the processing

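The call of Oprk1 between the trained and the WT-labelled arm held without each library in turn (log2 change -0.51 to -0.39) and under the alternatives not named here. The count of 1 opioid gene became 0 with the replicate block and with animal number as a covariate (Oprk1 0.095). It became 2 with the striatal marker score as a covariate, where 2767 of the 15006 genes were called. The replicate block used 14 libraries, where Oprk1 was at -0.38 (limma adjusted p = 0.0603) and Penk turned to 0.075. Same-numbered libraries correlated by 0.02, -0.06 and -0.09 on average in the 3 comparisons. These means rest on 8, 7 and 7 pairs, which ran from -0.28 to 0.36 in the first comparison. So few pairs cannot decide whether same-numbered libraries share anything. With the block, the number of called genes went from 203 to 131 between the untrained arms, from 661 to 27 with training and from 3264 to 1703 between the trained and the WT-labelled arm, and 0 opioid genes were called in each.

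The count of 0 opioid genes became 1 between the untrained arms with animal number as a covariate (215 genes called in all). With training it became 1 with equal sums, with all 24 libraries in one fit and with array weights, and ran from 0 to 1 without single libraries. Between the sexes it became 1 with equal sums (Oprd1) and 2 with array weights (Oprd1 and Pdyn), where 3494 and 4522 of the 15006 genes were called, so these counts are near the background. The cause was not tested.

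Signs that turned belonged to values that did not pass in the main fit, apart from Oprk1 and Fos. After the turn, the Penk change of 0.21 with the striatal score passed between the trained and the WT-labelled arm. Between the untrained arms, array weights gave Pnoc -0.0044, animal number gave Oprk1 0.0095 and the striatal score gave Penk 0.16. Without male untrained library 3 as well, animals under 1000 gave Pdyn -0.12 and Pnoc -0.053, animal number gave Pdyn -0.043 and Pnoc -0.052, and the striatal score gave Penk 0.083 and Pnoc -0.011. With training, array weights gave Penk 0.37 and Pnoc 0.11, animal number gave Oprd1 -0.11 and Pnoc 0.19, males over 1000 gave Oprd1 -0.013, and the striatal score gave Penk 0.093. Without male untrained library 3 as well, animal number gave Oprd1 -0.027 and Pnoc 0.019, and the striatal score gave Penk 0.12 and Pnoc 0.11. Between the trained and the WT-labelled arm, array weights gave Penk 0.014, animal number gave Oprd1 0.023, Oprl1 0.048, Penk 0.052, Pnoc -0.087 and Fos -0.061, and the striatal score gave Penk 0.21 and Pdyn 0.0041.

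Without single libraries, Penk ran from -0.41 to 0.18 between the untrained arms, from -0.25 to 0.24 with training and from -0.32 to 0.023 between the trained and the WT-labelled arm. Pdyn ran from -0.0055 to 0.25 and Pnoc from -0.025 to 0.24 between the untrained arms, Pnoc from -0.15 to 0.11 with training, and Oprl1 from -0.042 to 0.0090 between the trained and the WT-labelled arm.

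Over all genes, calls between the untrained arms numbered 203, against 124 without the sex covariate, 345 with array weights, and 141 to 370 without single libraries (370 without male untrained library 3). With training they numbered 661, against 388, 1890 and 294 to 810 in the same order, 1220 with all 24 libraries fitted jointly and 0 with animal number or in males over 1000. The lower counts, 294 to 415, came without untrained females 1 or 4 labelled KO or without trained females 1, 2 or 4. The single call of training by sex became 156 without male untrained library 3, 207 with the 24 libraries fitted jointly and 790 with array weights, with 0 opioid genes in each. Limma-voom called 196, 705 and 3326 genes in the 3 comparisons of arms. Reads limit Oprm1 most, at 12 to 60 reads outside male untrained library 3.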
